A study of Drosophila melanogaster with 12 samples.

Results

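The nuclear genes of oxidative phosphorylation were taken from the deposited gene counts by FlyBase symbol, as every gene whose symbol starts with ND-, COX and a number, UQCR-, ATPsyn or Sdh. The rule found 88 of 17559 genes, 40 of complex I, 8 of complex II, 9 of complex III, 16 of complex IV and 15 of complex V. Of these, 24 are paralogues whose symbol ends in L, or in L and a digit, and are called L copies here. Each was set beside the copy of the same subunit without that ending, called the ubiquitous copy. The pairing by symbol gave 20 pairs. COX6AL and COX6AL2 were paired with levy, the COX6A gene, and COX6CL with cype and ATPsynepsilonL with sun were added after the deposited tables had been seen, for 24 pairs in all. The genes levy, cype and sun lie outside the rule, so 18 ubiquitous copies are members. Sdhaf3, an assembly factor of complex II, matched by symbol only.

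Reproductive tracts of virgin Drosophila melanogaster males, with accessory glands, testes and ejaculatory duct together, were sequenced as stranded total RNA. A single base population, named IV in the labels, gave rise to 6 populations held for 168 generations under enforced monogamy (3 populations, 1 male with 1 virgin female) or polygamy (3 populations, 5 males with 5 females). Each library held the RNA of 30 pooled tracts from 1 population, taken when the males were 48 or 96 h old, and 12 libraries in 4 groups of 3 resulted: monogamous males at 48 h, monogamous males at 96 h, polygamous males at 48 h and polygamous males at 96 h. The replicates are evolving lines, and a p-value measures the spread between lines with 1 pool per line and age. No transgene, allele or agent is named in the labels. One label names the accessory gland alone as the source, while the others give the whole tract, and testis and accessory gland transcripts were both abundant in all 12 libraries.

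Oxidative phosphorylation passes electrons from NADH through complexes I, III and IV, and from succinate through complexes II, III and IV, to oxygen, and complex V uses the resulting proton gradient to make ATP. Most subunits are encoded in the nucleus and a few core subunits in the mitochondrial genome. In Drosophila many nuclear subunits have a second gene copy transcribed mostly in the testis, where the mitochondria of spermatids fuse into a large structure, the nebenkern, that elongates along the sperm tail.

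Library depth was 31367030 to 40581251 gene counts, and 3 counts were worth 0.0739 to 0.0956 CPM (counts scaled by library size and TMM factor). Values of 1 gene are given below in CPM, and levels of different genes in CPM per kb of exon. One library, that of monogamous population 1 at 48 h, was unlike the 11 others. It was at -68.2 on the first principal component (26.8% of variance) against -26.4 for the 96 h library of that population and -6.01 to 19.9 for the others. Its summed CPM was 51119 over 31 testis and spermatid markers against 35891 to 41493 elsewhere, and 5870 over 9 accessory gland markers against 13074 to 25026. Over 12 libraries 1 gene, Acp36DE, had a mean of 10297 CPM of the 17372 of the accessory gland list. No marker of either list was at 0 in any library. The fat body list summed to 184 CPM in the library of monogamous population 1 at 48 h against 44.4 to 81.8 elsewhere. Most of that sum was 1 gene, apolpp, with a highest value of 172 CPM, and the other genes of the list reached at most 8.74 CPM. Counts and medians below are given also without monogamous population 1 where it moved them. In pooled tissue, fewer cells of a type and less RNA per cell cannot be told apart.

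L copies and the other members are described first by position and gene structure. On the Ensembl BDGP6.54 annotation 1 L copy of 24, SdhBL (X, 18894446 to 18896581), lay on the X chromosome, against 12 of the 64 other members and 15.1% of all counted genes. Intronless genes made up 8 of 24 L copies and 0 of the 64 other members. The L copy had fewer introns than its partner in 17 of the 24 pairs, as many in 6 and more in 1, COX6AL2. In 7 pairs both copies were on the same chromosome arm. The closest were COX5BL (2L, 6559431 to 6560133) and COX5B, 122 bp apart, COX7CL (2R, 10050348 to 10050874) and COX7C, 281 bp apart, and COX7AL (3R, 8343669 to 8344310) and COX7A, 2625 bp apart.

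The tract transcribed members over a wide range of levels. COX4L, a copy of the cytochrome c oxidase subunit COX4, had the highest mean level of all members at 467 CPM per kb. In complex I the range ran from ND-13A, an accessory subunit, at 145 CPM per kb to ND-MNLL at 0. All exons of ND-MNLL (X, 7893053 to 7893798) lie within exons of CG45089 on the same strand, and no read was assigned to ND-MNLL in any library. In spite of its last letter it is no L copy, as the name spells amino acids. In complex II the range ran from SdhBL, a copy of the iron-sulphur subunit, at 216 CPM per kb to Sdhaf3 at 23.7. Complex III ran from UQCR-C1, a core subunit, at 254 CPM per kb to UQCR-11 at 11.5. Complex IV ended at COX7AL2 with 1.64 CPM per kb, and complex V ran from ATPsynB, a peripheral stalk subunit, at 163 CPM per kb to ATPsyndelta at 9.41. The place of ATPsyndelta depended on its exon union of 3817 bp. By mean CPM it was at 35.9, above ATPsynepsilonL at 8.62. The median level was 93.2 CPM per kb over L copies and 61.2 over the other members, and the difference was widest in complex IV, where it was 224 against 74.2. In complex V the order was the other way, with 60.3 against 83.1 CPM per kb. L copies made up 40.0% ± 1.61 of the summed level of all members (SD, n = 12), between 37.2% and 42.5% in every library.

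**Figure D1:**
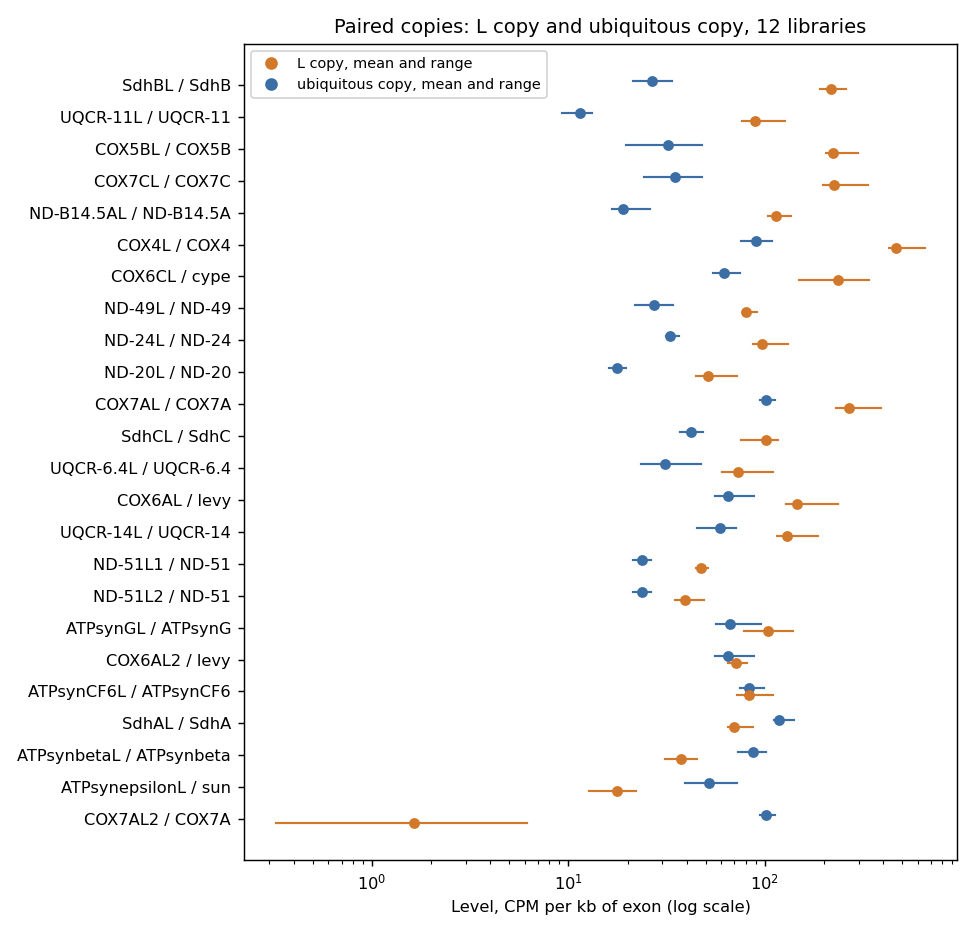
Level of the L copy (orange) and the ubiquitous copy (blue) of each of 24 pairs, in CPM per kb of exon on a log axis. Points are means over 12 libraries and lines run from the lowest to the highest library. The L copy has the higher mean level in 20 pairs, ATPsynCF6L by less than the spread, and COX7AL2 lies far below COX7A.

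By the mean log2 ratio of the levels the L copy was higher in 19 of 24 pairs, in 18 of these in 12 of 12 libraries. The median ratio over pairs was 2.39. The highest ratios were those of SdhBL to SdhB at 8.10, UQCR-11L to UQCR-11 at 7.76, COX5BL to COX5B at 7.17, COX7CL to COX7C at 6.50 and ND-B14.5AL to ND-B14.5A at 5.99. They were followed by COX4L to COX4 at 5.17. The ratio of UQCR-11L rested in part on gene length, since UQCR-11 has a long exon union, and its log2 value of 2.96 became 2.38 with the longest transcript. Unequal lengths entered other pairs in both directions. Mean CPM was 92.4 for COX7CL (410 bp of exon) and 29.9 for COX7C (853 bp), and 341 for COX4L (730 bp) and 111 for COX4 (1231 bp). For SdhBL (1949 bp) and SdhB (1219 bp), at 422 and 32.6 CPM, length lowered the ratio.

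SdhBL (FBgn0030975) was at 503, 468 and 390.4 CPM in monogamous populations 1 to 3 at 48 h and at 392, 444 and 370.3 CPM at 96 h. It was at 413, 429 and 424 CPM in polygamous populations 1 to 3 at 48 h and at 398, 423 and 406 CPM at 96 h. SdhB (2R, 6807626 to 6809172) had 34.3, 30.5 and 32.8 CPM in monogamous males at 48 h, 32.2, 26.1 and 29.0 CPM at 96 h, 41.2, 35.8 and 36.4 CPM in polygamous males at 48 h and 32.4, 31.5 and 29.8 CPM at 96 h. Every library of SdhBL thus lay far above every library of SdhB. At 48 h SdhB had more signal in polygamous than in monogamous males, with no overlap of the regimes. The regimes also did not overlap at 48 h for 22.3% of all tested genes, and 0 genes passed there (0%).

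COX5B and its tandem copy COX5BL encode a matrix-side subunit of cytochrome c oxidase. COX5B had 35.0, 16.9 and 16.8 CPM in monogamous populations 1 to 3 at 48 h and 24.7, 14.2 and 16.6 CPM at 96 h, against 30.2, 27.6 and 28.6 CPM in polygamous populations at 48 h and 21.2, 24.4 and 25.1 CPM at 96 h. Monogamous populations 2 and 3 were the lowest at both ages, while monogamous population 1 lay in the range of the polygamous lines or above it. COX5BL had 193, 145 and 147 CPM in monogamous males at 48 h, 139, 145 and 139 CPM at 96 h, 142, 142 and 135 CPM in polygamous males at 48 h and 141, 136 and 133 CPM at 96 h, without that split between lines. The ratio of the copies was 9.42 to 11.5 in the 4 libraries of monogamous populations 2 and 3, and 5.28 to 7.51 in the 8 libraries of the other populations. All COX5BL exons overlap Trmt6 on the other strand.

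The ratio varied between groups more for COX7CL and UQCR-11L than for ND-B14.5AL (3L, 22606369 to 22607126). The mean ratio of COX7CL to COX7C was 6.67 in monogamous males at 48 h and 7.57 at 96 h, and 5.16 in polygamous males at 48 h and 6.95 at 96 h. For ND-B14.5AL, a copy of an accessory subunit of complex I, the means in the same order were 5.98, 6.002, 5.74 and 6.28. For UQCR-11L they were 8.67, 8.43, 6.61 and 7.63. The monogamous means at 48 and 96 h without monogamous population 1 were 6.52 and 7.87 for COX7CL, 6.35 and 5.99 for ND-B14.5AL and 7.74 and 8.54 for UQCR-11L.

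The pairs with ratios between 1.10 and 3.74 came from all 5 complexes. ND-49L, a copy of a subunit at the ubiquinone site, had a ratio of 2.98, ND-24L 2.92 and ND-20L 2.88, the last 2 being copies of iron-sulphur subunits. ND-51, which binds NADH, has 2 intronless copies on 2R, ND-51L1 with a ratio of 2.004 and ND-51L2 with 1.64. COX6CL was at 3.74 against cype, COX7AL at 2.61 (log2 1.38, and 1.22 with the longest transcript), SdhCL at 2.41, UQCR-6.4L at 2.37, COX6AL at 2.23 against levy, UQCR-14L at 2.18 and ATPsynGL at 1.55. COX6AL2 was at 1.10 against levy (log2 0.14), but Ir75d covers 67.0% of its exon bases on the same strand. With all its counts divided by the remaining bases alone the log2 ratio was 1.74. Reads were not recounted, so that value holds only if no read within the overlap was counted.

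The mean log2 ratio was below 0 in 5 pairs, 3 of them in complex V. ATPsynbetaL, a copy of the catalytic beta subunit, had a mean of 0.429 of the level of ATPsynbeta, and ATPsynepsilonL had 0.341 of the level of sun. SdhAL, a copy of the flavoprotein subunit, had 0.588 of SdhA. These 3 lay below their partner in 12 of 12 libraries, as did COX7AL2 at 0.0123 of COX7A. COX7AL2 had 5.77, 1.21 and 0.524 CPM in monogamous populations 1 to 3 at 48 h and 0.307 to 1.76 CPM in the other 9 libraries, so the library that stood apart held its highest value. ATPsynCF6L, a copy of coupling factor 6, differed from ATPsynCF6 by less than the spread between libraries, with a ratio of 0.998 (log2 -0.0031 ± 0.15, SD, n = 12). That spread includes differences between groups. The mean log2 ratio was 0.06 and 0.11 in monogamous males at 48 and 96 h, and -0.22 and 0.03 in polygamous males.

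Between 48 and 96 h 2 of the 87 tested members changed, averaged over regimes, both downward, while 1.47% of 13156 tested genes were called (0.646% downward and 0.829% upward). They were ND-MLRQ (3L, 23339326 to 23345936), whose mammalian counterpart is counted with complex IV, and ATPsynC (3R, 31216145 to 31219630), which forms the rotating c ring of ATP synthase. ND-MLRQ had 82.8, 62.6 and 70.2 CPM in monogamous populations 1 to 3 at 48 h and 56.3, 56.4 and 60.0 CPM at 96 h. In polygamous populations 1 to 3 it had 72.5, 69.9 and 68.5 CPM at 48 h and 53.4, 57.7 and 55.3 CPM at 96 h. All 6 libraries at 48 h were above all 6 at 96 h. It fell 1.26-fold (log2 change -0.33 ± 0.06, SE, 6 libraries against 6 without a block, edgeR adjusted p = 0.0316). This fit treats the libraries of a population as independent.

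ATPsynC had 236, 205 and 191 CPM in monogamous populations 1 to 3 at 48 h and 185, 166 and 166 CPM at 96 h. In polygamous populations 1 to 3 it had 223, 221 and 217 CPM at 48 h and 177, 186 and 192 CPM at 96 h. It was lower at 96 h in 6 of 6 populations, and the ages met only at 191 and 192 CPM. The fall was 1.21-fold (-0.27 ± 0.05, edgeR adjusted p = 0.0376). With size factors taken from testis genes neither gene passed, and 0.722% of all genes did.

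The remaining 85 tested members did not pass, and most had a small negative log2 change. The sign was negative for 79 of 87, with a median of -0.12 against 0.01 over all tested genes, and the unadjusted p was under 0.05 for 33 of 87 against 17% of all tested genes. Of the 85 members whose mean reached 5 CPM, 39 were lower at 96 h in 6 of 6 populations, against 9.76% of the 9007 tested genes at that level, and 2, ATPsynbetaL and ATPsynepsilonL, in 0 of 6. The TMM factors separated by age, at 0.967 to 0.989 in the libraries of 48 h and 1.01 to 1.04 in those of 96 h. This scaling lowers CPM at 96 h relative to 48 h. Without TMM scaling 15 were lower in 6 of 6 populations, against 2.35%. The ages did not overlap for 10 members, against 3.01% of tested genes. These were ND-B15, ND-B22, ND-MLRQ, SdhC, UQCR-6.4, UQCR-Q, COX4, COX7B and ATPsynG, with lower values at 96 h, and ATPsynbetaL, with higher.

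**Figure D2:**
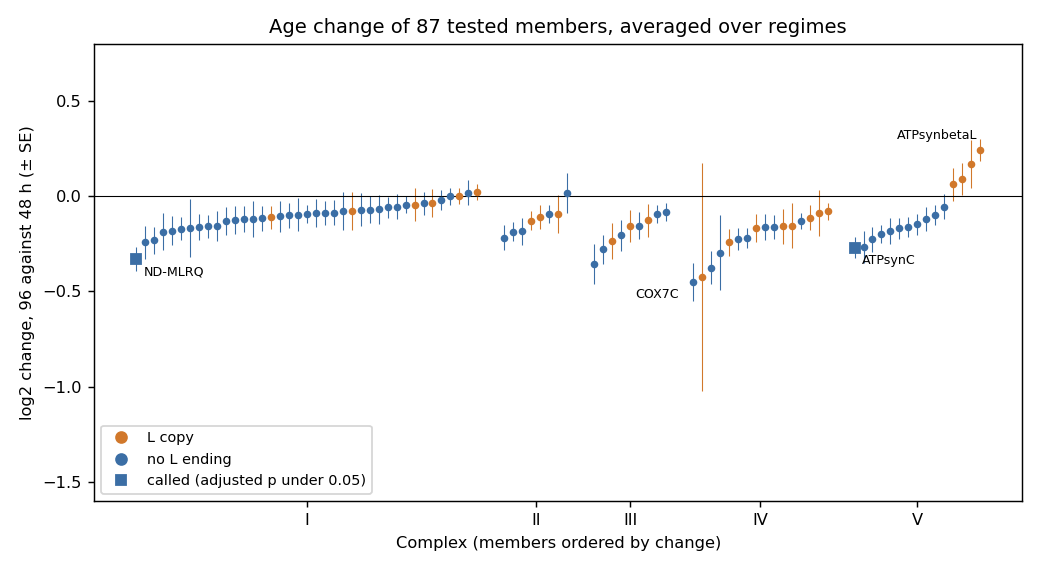
log2 change from 48 to 96 h averaged over regimes for 87 tested members, ordered within complexes I to V, with standard errors from the edgeR fit. Orange points are L copies, blue points other members, and squares the 2 called genes; 79 of the 87 values lie below 0.

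Medians of the log2 change are given by complex. Over members without an L ending the median log2 change was -0.10 in complex I (33 tested, 1 called), -0.18 in complex II (5, 0 called), -0.18 in complex III (6, 0 called), -0.22 in complex IV (8, 0 called) and -0.17 in complex V (11, 1 called). All 18 ubiquitous copies had a negative value, with a median of -0.20, and 18 of 24 L copies did, with a median of -0.10. Without monogamous population 1 the medians were -0.16 and -0.01, and over all members -0.06. With size factors taken from testis genes the medians were -0.13 for ubiquitous copies, -0.04 for L copies and -0.05 for all members, while the median of all genes moved to 0.07. The testis list had a median of -0.10 in the fit reported, so scaling to it raises every value. As a share of gene counts without TMM scaling, the members summed to 0.702% to 0.879% and were lower at 96 h in 3 of 6 populations and higher in 3, whereas their summed CPM was lower in 6 of 6.

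Several members had an adjusted p just above the threshold and did not pass. COX7C, a small membrane subunit of cytochrome c oxidase, had 40.9, 28.2 and 32.0 CPM in monogamous males at 48 h, 24.3, 20.6 and 28.9 CPM at 96 h, 35.4, 34.5 and 35.9 CPM in polygamous males at 48 h and 24.7, 26.7 and 26.1 CPM at 96 h. It was lower at 96 h in each population (-0.45 ± 0.10, edgeR adjusted p = 0.0526), with no overlap of the ages in polygamous males and an overlap in monogamous males. COX7B had a log2 change of -0.37 ± 0.09 (edgeR adjusted p = 0.0611), COX4 of -0.22 ± 0.05 (0.0631) and ATPsyngamma, the rotor shaft of ATP synthase, of -0.20 ± 0.05 (0.0758). The panel genes COX5A (-0.16), ND-75 (-0.09), UQCR-C1 (-0.09), SdhA (-0.09), SdhAL (-0.13) and COX4L (-0.17) had edgeR adjusted p values of 0.231 to 0.355.

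ATPsynbetaL went the other way from the gene it copies. It had 63.3, 73.0 and 71.4 CPM in monogamous populations 1 to 3 at 48 h and 75.9, 75.4 and 86.2 CPM at 96 h. In polygamous populations 1 to 3 it had 69.9, 70.9 and 69.3 CPM at 48 h and 92.0, 87.7 and 77.8 CPM at 96 h. Each 96 h library was above each 48 h library, but the gene did not pass in the fit without a block (0.24 ± 0.06, edgeR adjusted p = 0.0697). With the population as block it rose (0.24, edgeR adjusted p = 0.0475), and over the other alternatives its adjusted p ran from 0.00409 to 0.201. ATPsynbeta had a log2 change of -0.16 ± 0.05 (edgeR adjusted p = 0.179).

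**Figure D3:**
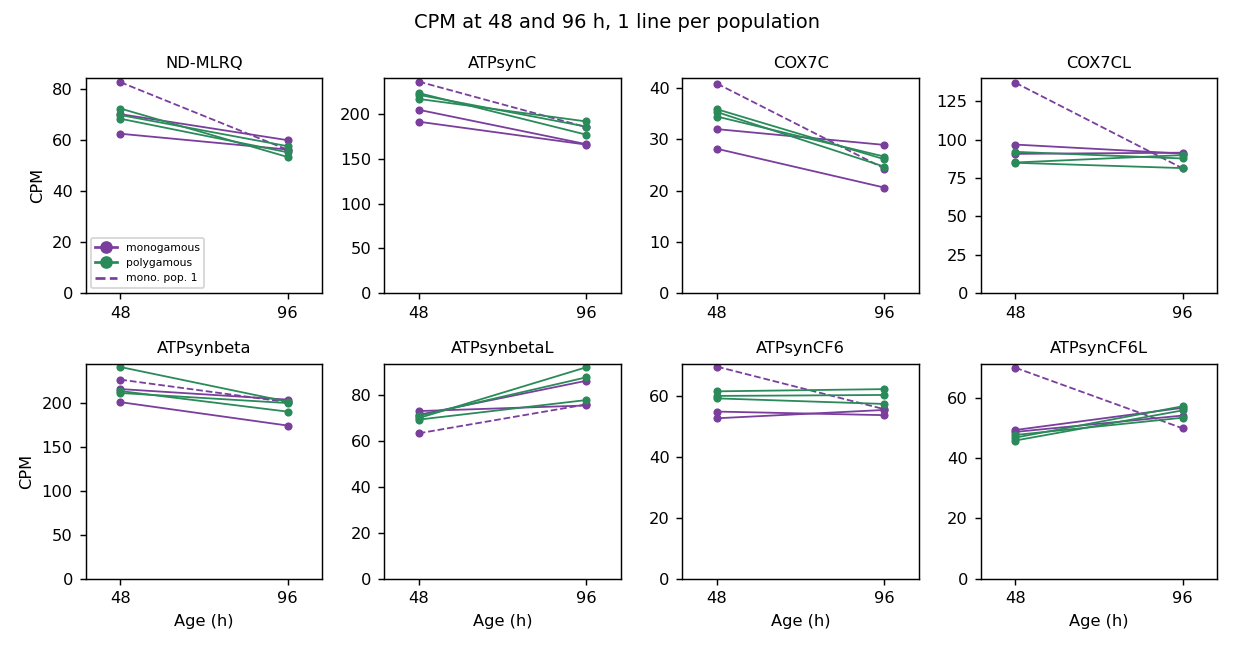
CPM at 48 and 96 h for 8 members, 1 line per population, purple for monogamous and green for polygamous lines, dashed for monogamous population 1, with each axis starting at 0. ND-MLRQ and ATPsynC decline in 6 of 6 populations and ATPsynbetaL is higher at 96 h in 6 of 6, while the steepest lines of COX7CL and ATPsynCF6L belong to monogamous population 1.

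Which members passed depended on the fit. With the population as replicate block 8 members were called, 7 down and 1 up, while 3.61% of all tested genes were called (1.88% down, 1.73% up). The 7 were ND-MLRQ, ATPsynC, COX7C, COX7B, COX4, ATPsyngamma and SdhB, and the 1 was ATPsynbetaL. Without monogamous population 1, 13 fell and 2 rose, against 3.53% down and 2.56% up among all genes (6.09% in all). With the block in that fit 31 fell and 3 rose, against 11% down and 10.7% up (21.7% in all). In this last fit all 8 members of complex IV without an L ending fell, as did 8 of 11 in complex V, 3 of 6 in complex III, 3 of 5 in complex II and 7 of 33 in complex I. The 3 that rose there were L copies of complex V, ATPsynbetaL, ATPsynCF6L and ATPsynGL. DESeq2 on all libraries called 17 down and 1 up (4.77%). Leaving out any 1 polygamous library or the 96 h library of monogamous population 2 gave 0 calls among members (0.6% to 0.795% of all genes for the polygamous libraries and 1.06% for the monogamous one), while leaving out the 96 h library of monogamous population 1 gave 1 (0.783%). Calls numbered 4 without monogamous population 3 at 48 h (1.61% of all genes) and 15 without monogamous population 1 at 48 h (6.86%).

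Within each regime 0 members passed in edgeR. For monogamous males 72 genes were called in all (0.547%), and 28 members had an unadjusted p under 0.05 (14.8% of genes). For polygamous males 13 genes were called (0.0988%, with 0.0684% down and 0.0304% up), and 14 members had an unadjusted p under 0.05 (7.72% of genes). The block called ATPsynC in monogamous males (1.92% of all genes called), and DESeq2 called ATPsynC and ND-MLRQ in monogamous males (2.57%) and COX4 and ND-MLRQ in polygamous males (0.981%). Without monogamous population 1 the polygamous comparison gave 8 calls, 7 down and 1 up, against 2.12% and 0.68% of genes (2.81% in all). With the block in that fit there were 27, 25 down and 2 up, against 8.48% and 6.44% (14.9% in all). The monogamous comparison then rested on 2 populations and gave 0 calls (0.688% of genes, 0.431% down and 0.257% up), and 6 with the block (7.78%). In polygamous males 6 members passed when that population's 48 h library alone was left out (2.75% of genes). The difference of the age change between regimes passed for 0 members and 0 genes (0%) in edgeR without a block and in DESeq2, with 0 members and 2.47% of genes at an unadjusted p under 0.05. With the block 1 gene passed (0.0076%), and 87 with the block and without monogamous population 1 (0.658%, 0.605% down), 0 of them members.

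The ratio of the L copy to the ubiquitous copy does not depend on library scaling and was compared within each population. From 48 to 96 h its mean was higher in 19 of 24 pairs, with a median change of 0.09 on the log2 scale, and 22 pairs and 0.16 without monogamous population 1. In polygamous lines 23 pairs were higher, with a median of 0.22. In monogamous lines 10 were, with a median of -0.0075, and 18 without monogamous population 1, with a median of 0.097. The ratio was higher at 96 h in 6 of 6 populations for 4 pairs, 3 of them in complex V. The changes were 0.33 ± 0.03 for ATPsynGL, a copy of subunit g, 0.40 ± 0.15 for ATPsynbetaL, 0.56 ± 0.24 for ATPsynepsilonL and 0.12 ± 0.11 for UQCR-6.4L (SD, n = 6 populations).

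ATPsynGL and ATPsynG show how even such a change could be. The ratio of ATPsynGL to ATPsynG was 1.47, 1.65 and 1.47 in monogamous populations 1 to 3 at 48 h and 1.798, 2.09 and 1.88 at 96 h. In polygamous populations 1 to 3 it was 1.27, 1.15 and 1.37 at 48 h and 1.57, 1.41 and 1.75 at 96 h. Each line moved by nearly the same amount, and the ages overlapped only because the regimes lay at different levels. By itself ATPsynGL had a log2 change of 0.06 ± 0.09 (edgeR adjusted p = 0.751) and ATPsynG of -0.27 ± 0.08 (0.151).

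**Figure D4:**
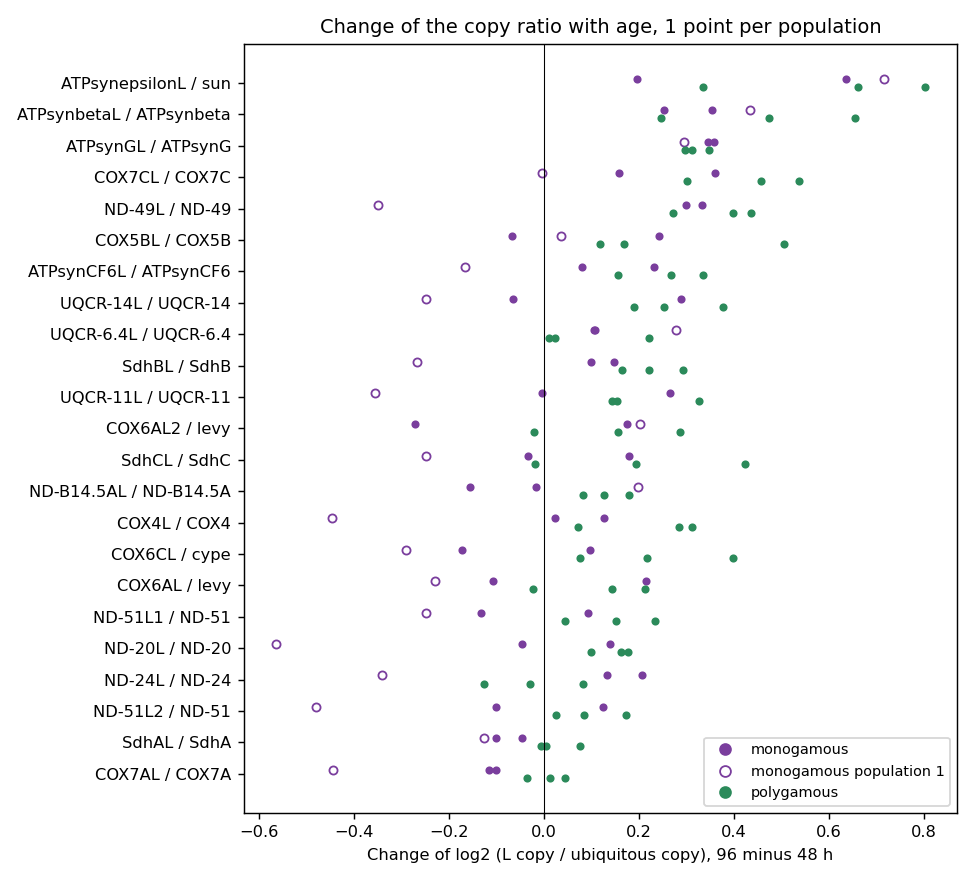
Change from 48 to 96 h of the log2 ratio of L copy to ubiquitous copy in each of 6 populations, for 23 pairs; the pair of COX7AL2, whose counts were low, is left out. Purple points are monogamous lines, the open one population 1, and green points polygamous lines. For the 3 complex V pairs at the top every point lies above 0, and the open points account for many of the lowest values.

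No member passed between polygamous and monogamous males by edgeR. At 48 h 0 members and 0 of 13156 genes passed (0%), with 12 members and 17.1% of genes at an unadjusted p under 0.05 (21 and 12.7% without monogamous population 1), and DESeq2 called 0 members (1.04% of genes). At 96 h 0 passed (0%), with 2 members and 3.69% of genes at an unadjusted p under 0.05 (11 and 8.15% without monogamous population 1), and DESeq2 called 0 members (0.175%). With the 2 libraries of each population summed, 0 members and 0 of 13512 genes passed (0%), with 5 members and 9.47% of genes at an unadjusted p under 0.05 (15 and 8.52% without monogamous population 1). There DESeq2 called ATPsynGL (log2 -0.35, adjusted p = 0.0389, 0.548% of genes called), for which edgeR gave -0.34 ± 0.08 (adjusted p = 0.520). The 5 members with all populations in were L copies, ATPsynGL, COX7AL, COX6CL, UQCR-11L and COX6AL2, each with a negative value.

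ATPsynGL itself had 76.4, 59.0 and 55.5 CPM in monogamous males at 48 h and 60.3, 64.9 and 64.8 CPM at 96 h. In polygamous males it had 48.9, 42.7 and 50.5 CPM at 48 h and 50.7, 47.0 and 58.0 CPM at 96 h. The regimes did not overlap at either age. At 48 h the regimes did not overlap for 14 of 87 members, 10 of them L copies with the higher values in monogamous males, against 22.3% of all tested genes. COX6CL had 166, 128 and 134 CPM in monogamous males at 48 h and 73.3, 117 and 103 CPM in polygamous males, with the lowest value in polygamous population 1.

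At 48 h the ratio of L copy to ubiquitous copy was lower in polygamous than in monogamous males in 23 of 24 pairs, with a median difference of -0.28 on the log2 scale, and in 22 pairs with -0.22 without monogamous population 1. At 96 h it was lower in 17 pairs, with a median of -0.09. L copies had a median log2 difference of -0.21 at 48 h and ubiquitous copies of 0.06, against -0.0017 for all genes. Without monogamous population 1 these were -0.06 and 0.16. With size factors from testis genes they were -0.05 and 0.22, and the median of all genes moved to 0.15. The testis list had a median of -0.14 at 48 h in the fit reported, so scaling to it raises every value. The age and regime contrasts share libraries, so a low ratio in polygamous males at 48 h enters both.

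**Figure D5:**
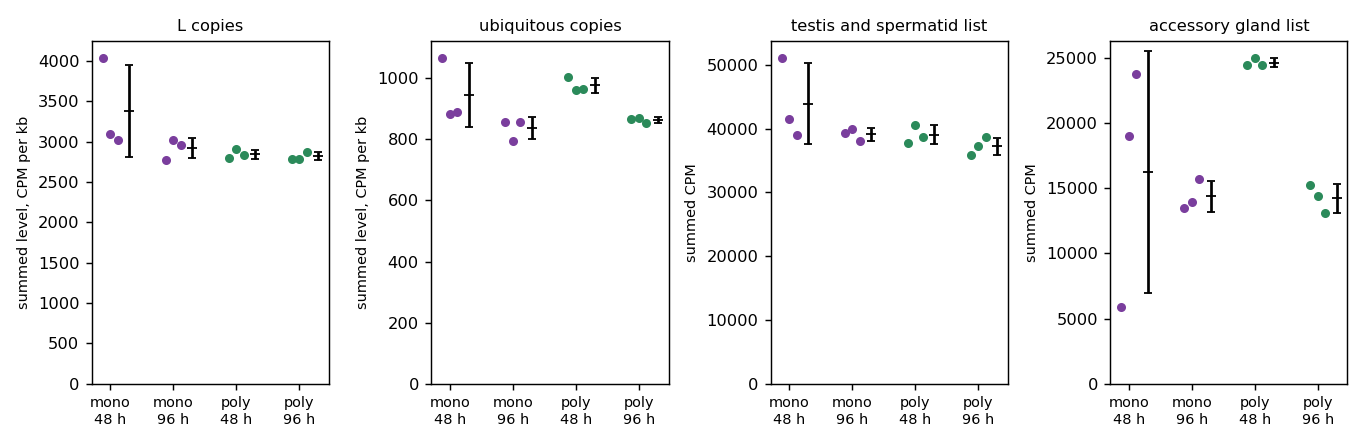
Summed level of the 24 L copies and of the 18 ubiquitous copies among members (CPM per kb), and summed CPM of 31 testis and spermatid markers and 9 accessory gland markers, by group. Points are libraries, in population order, and bars give the mean and SD of 3. The first monogamous library at 48 h is highest for the L copies, at 4039, for the ubiquitous copies, at 1067, and for testis markers. It is lowest for accessory gland markers.

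Sums over the copies and over tissue markers are given by group. The L copies summed to 4039, 3088 and 3023 CPM per kb in monogamous populations 1 to 3 at 48 h and to 2775, 3015 and 2958 at 96 h. In polygamous males they summed to 2792, 2906 and 2831 CPM per kb at 48 h and to 2787, 2788 and 2875 at 96 h. Apart from the first of these libraries they stayed within 2775 to 3088. The ubiquitous copies summed to 1067, 881 and 889 CPM per kb in monogamous males at 48 h and 858, 794 and 855 at 96 h, and to 1005, 961 and 966 in polygamous males at 48 h and 867, 871 and 853 at 96 h, lower at 96 h in 6 of 6 populations.

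The summed testis markers were 39059 to 51119 CPM in monogamous males at 48 h, 38001 to 39952 at 96 h, 37701 to 40627 in polygamous males at 48 h and 35891 to 38606 at 96 h. Accessory gland markers were 5870 to 23806 CPM in monogamous males at 48 h, 13474 to 15698 at 96 h, 24433 to 25026 in polygamous males at 48 h and 13074 to 15262 at 96 h. The 6 haemocyte and basement membrane markers were 167 to 338 CPM, 90.1 to 153, 170.5 to 193 and 114 to 141 in the same order, lower at 96 h in 6 of 6 populations, and 2 of them, vkg and SPARC, fell with age by edgeR. Of the testis and accessory gland markers 0 passed for age averaged over regimes. Without monogamous population 1, 6 of 9 accessory gland markers fell (median log2 change -0.59) and 2 of 31 testis markers rose. Of all genes 3.53% fell and 2.56% rose in that fit. With the block in that fit 7 accessory gland markers fell and 1 rose, and 6 testis markers rose and 4 fell, against 11% down and 10.7% up among all genes. Muscle markers, 9 of them tested, summed to 933 to 1439.7 CPM in monogamous males at 48 h, 1244 to 1326 at 96 h, 1439.6 to 1659.7 in polygamous males at 48 h and 1296 to 1415 at 96 h. All 9 had a positive log2 difference between polygamous and monogamous males at 48 h (median 0.36, and 0.19 without monogamous population 1), and 0 passed. The summed fat body list, mostly apolpp, was lower at 96 h in 5 of 6 populations, and 0 of its 5 tested genes passed. For muscle markers and age 0 passed, 2 fell without monogamous population 1 (3.53% of all genes), and 7 fell with the block in that fit (11%). The part of these markers in the results above was not tested.

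Across the 12 libraries the summed L copies followed the testis list (Pearson r = 0.947, a description, since both share libraries and depth), while for the ubiquitous copies r was 0.570. Without monogamous population 1 the values over 10 libraries were 0.823 and 0.0393. The testis sum weights abundant genes most. Its mean was 39813 CPM, with S-Lap1, S-Lap7, S-Lap4 and S-Lap3 at 7133, 5415, 3832 and 3296 CPM and comr at 9.05. Among 8752 genes outside the rule whose mean reached 5 CPM, those most like the summed L copies were CG15638 (r = 0.991), Ucp4C, a mitochondrial carrier gene (0.990), and DnaJ-H (0.986). Those most like the summed ubiquitous copies were Pdha, of the pyruvate dehydrogenase complex (0.962), GstO3 (0.957) and SPARC (0.955). Without that population these 6 values were 0.914 to 0.944. The library of monogamous population 1 at 48 h contributed much of the spread. It held the highest value of the 5 members that varied most, COX5B (2.46-fold from lowest to highest library), COX6CL (2.26), UQCR-6.4 (2.03), COX7C (1.98) and COX6AL (1.84), against a median of 1.42 over members.

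Other genes of the pathway gave similarly small values with age. Of 9 tested nuclear subunit and cytochrome c genes outside the rule 0 passed, with a median of -0.16. Cyt-c-d, the testis cytochrome c, was at 472 to 656 CPM, and Cyt-c1 and its copy Cyt-c1L were at 22.5 to 33.1 and 93.3 to 128 CPM. Of 12 tested mitochondrial genome transcripts 0 passed, with a median of -0.10. Of 15 citric acid cycle genes 1 fell, Mdh2, the mitochondrial malate dehydrogenase (1.35-fold, -0.43 ± 0.05, edgeR adjusted p = 0.00308), which also fell in monogamous males alone (-0.42 ± 0.07, edgeR adjusted p = 0.0378). Of 6 genes of mitochondrial biogenesis and DNA maintenance 0 passed, and the median was 0.10.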

How the data were processed

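The authors deposited raw counts per gene for each library. Tools named in the submitters' processing notes were Trimmomatic 0.33, TopHat2 2.1.0, and HTSeq 0.6.1, with build BDGP6. Strand setting, counting mode and annotation release are not given in the sources used here. Counts of overlapping genes are therefore uncertain. COX5BL held counts although Trmt6 covers it on the other strand, and ND-MNLL, covered on its own strand, held 0. Summary lines (15.1% to 17.2% of counts) were left out, alignments that were not unique (10.8% to 12.8%) among them, so reads identical between copies are missing. Sequences of the copies were not analysed here.

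For tests, edgeR 4.0.16 under R 4.3.3 was run in its quasi-likelihood mode (TMM, filterByExpr, robust fit), 1 coefficient per group, all 12 libraries, Benjamini-Hochberg adjustment over all tested genes and a threshold of 0.05. DESeq2 1.42.0 and the other settings were alternatives. Levels divide CPM by the exon union of the Ensembl BDGP6.54 annotation. Only the edgeR fit without a block, for age averaged over regimes, was tried on simulated data. The planted changes were larger than those of the members, and no population effect or unlike library was simulated. Power at the sizes seen here and the other fits were not tested. Libraries of a population deviated together (correlations over genes of 0.390 to 0.570). The fit reported leaves this pairing out and treats them as independent, and the population block is given as an alternative for age.

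Members and lists were chosen with earlier results of these data known. The genes named are the L copies and their partners, called members, the highest and lowest member of each complex, the 5 most variable, a panel, and the 3 genes most like each sum; others were named after their values were seen.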

Additional observations from a re-analysis of the deposited data

How the results depend on the processing

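For age averaged over regimes, the count of members called, 2, was 3 with RLE size factors (1.42% of all genes called), 2 with no filter (1.04%), 0 with testis gene size factors (0.722%, against 1.47% in the fit reported), 18 with DESeq2, 8 with the replicate block, 15 without monogamous population 1, 34 with both changes and 0 to 15 leaving out 1 library (0.6% to 6.86% of all genes). For age in monogamous males, the count of 0 became 2 with DESeq2, 1 with the replicate block and 6 with the block and without population 1. For age in polygamous males it became 2 with DESeq2, 8 without population 1, 27 with the block in that fit, and 0 to 6 leaving out 1 library. Summed populations gave 1 with DESeq2. Blocking on the population number gave 0 members for the regime comparisons, as did the population block for the difference of the age change. Numbers across regimes did not pair (correlations -0.148 to 0.199). The combined fit, the values without TMM scaling and the overlap-free exon lengths were added after seeing the data. With the longest transcript, 20 of 24 ratios moved by less than the spread, and ATPsynCF6L was -0.20, ATPsynbetaL -1.44, COX7AL 1.22 and UQCR-11L 2.38 on the log2 scale. With the same counts divided by the overlap-free exon length COX6AL2 was 1.74. ATPsynCF6L ran from -0.0239 to 0.0218 leaving out 1 library. The L copies' share was 36.0% by CPM without length. Over 380 alternative values of 20 named log2 changes, 0 changed sign. The cause of these shifts was not tested. Depth limits COX7AL2, at 0.307 CPM in its lowest library, where 3 counts were worth about 0.09 CPM.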
